A study of Homo sapiens with 16 samples.

Results

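Cytosolic heat shock genes were examined in LNCaP, a line of human prostate cancer cells, in which the XBP1 arm of the unfolded protein response (UPR) had been blocked by siRNA or by a drug during endoplasmic reticulum (ER) stress. The set was given by name and holds 10 of the 58051 genes in the count table. It consists of the transcription factor gene HSF1, the HSP70 and HSP110 genes HSPA1A, HSPA1B, HSPA8 and HSPH1, the HSP90 genes HSP90AA1 and HSP90AB1, the co-chaperone genes DNAJB1 and BAG3, and the small heat shock protein gene HSPB1. All 10 symbols were matched to an Ensembl gene.

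RNA was sequenced from 4 groups of 4 libraries, all from LNCaP cells at passage 20. In the knockdown experiment, cells were transfected for 2 days with Allstar control siRNA (siCtrl) or with siRNA against XBP1 (siXBP1). In the inhibitor experiment, cells received DMSO (Vehicle) or 10 µM MKC8866, a blocker of the RNase of IRE1α, for 24 h. Every group, the controls included, ended with 3 h of 30 nM thapsigargin (TG), so no group shows cells without ER stress. TG empties the calcium store of the ER. The heat shock genes serve here as a cytosolic contrast to the ER genes that the study addressed. One line in culture was used, and the labels do not say that the 4 libraries of a group came from separate cultures, so p-values measure only the spread between these samples.

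The heat shock response and the UPR are parallel programmes for 2 compartments. HSF1 is held inactive by chaperones in the cytosol, forms trimers when unfolded proteins occupy them, and binds heat shock elements, which are repeats of a GAA unit in alternating direction. Its targets encode HSP70 and HSP90 proteins, which fold clients with ATP, and J-domain, BAG and small heat shock proteins, which load, release or hold those clients. XBP1s, made when IRE1α cuts the XBP1 mRNA, acts instead on genes for folding and secretion in the ER. LNCaP and other prostate cancer cells use the HSP90 system to keep the androgen receptor able to bind hormone.

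To show how far the promoters of these genes differ from those of ER chaperones, both kinds of element were searched on both strands of RefSeq promoter windows (GRCh38.p14), each running from 250 bases before to 50 bases after a transcript start. A window was found for 9 of the 10 genes. A heat shock dimer, GAANNTTC or TTCNNGAA, was present in a window of 7 of the 9 genes (77.8%), against 16.2% of 27305 genes with a window. The form with 3 units, GAANNTTCNNGAA or TTCNNGAANNTTC, contains 2 overlapping dimers and was present for 3 of the 9, namely HSPA8, HSP90AA1 and HSP90AB1, against 0.608% of all genes. No window of the 9 genes held the ER stress element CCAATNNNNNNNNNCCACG or the UPR element core TGACGTGG. Over all genes with a window these were present for 0.0916% and 0.927%, so their absence from 9 genes does not set these genes apart. Among 14 genes for chaperones and degradation factors of the ER, the ER stress element was found for HSPA5, HSP90B1, CALR and CRELD2. The UPR core was found for HYOU1, whereas the heat shock forms were found for SERPINH1 alone. These matches are a description of the letters in the windows. The windows of HSPH1 and BAG3 held none of these letters, and no window was found for HSF1.

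The stretches around the matches are printed because they show the heat shock element in the 7 genes whose windows held it, with the matched letters in capitals. HSPA8 (chr11:123062164-123062381, minus strand) has 3 units far from the start and again close to it. HSP90AB1 (chr6:44247763-44247858, plus strand) and HSP90AA1 (chr14:102087090-102087147, minus strand) also have 3 units, each at 1 of their alternative starts. DNAJB1 (chr19:14518422-14518489, minus strand, from 1 of 3 windows), HSPB1 (chr7:76302476-76302513, plus strand), HSPA1A (chr6:31815422-31815459, plus strand) and HSPA1B (chr6:31827618-31827655, plus strand) have dimers. The printed stretches lie before the start, and another window of DNAJB1 held a dimer just after its start.
HSPA8: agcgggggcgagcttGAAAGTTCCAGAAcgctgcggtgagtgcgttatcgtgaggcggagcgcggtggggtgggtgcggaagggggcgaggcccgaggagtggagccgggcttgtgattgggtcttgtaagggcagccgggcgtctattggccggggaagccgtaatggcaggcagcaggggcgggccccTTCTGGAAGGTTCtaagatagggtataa
HSP90AB1: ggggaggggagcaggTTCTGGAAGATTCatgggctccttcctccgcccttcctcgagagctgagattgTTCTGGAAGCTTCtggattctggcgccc
HSP90AA1: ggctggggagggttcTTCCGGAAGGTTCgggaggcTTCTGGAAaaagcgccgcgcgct
DNAJB1: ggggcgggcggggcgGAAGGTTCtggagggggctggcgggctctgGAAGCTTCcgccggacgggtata
HSPB1: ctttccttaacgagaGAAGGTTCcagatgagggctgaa
HSPA1A: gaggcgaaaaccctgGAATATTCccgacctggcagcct
HSPA1B: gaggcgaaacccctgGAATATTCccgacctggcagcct

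Per library, 28713607 to 34509488 fragments fell on genes. XBP1 itself fell from 384 ± 29.5 CPM (counts scaled to a library of 1e+06) in siCtrl to 53.4 ± 1.32 CPM in siXBP1 (SD, n = 4). XBP1 was at 501 ± 25.6 CPM in Vehicle and higher, at 577 ± 30.7 CPM, with MKC8866 (log2 fold change 0.20, adjusted p = 0.00493 by edgeR's quasi-likelihood test). Counts per gene pool spliced and unspliced XBP1 mRNA, so they do not show whether MKC8866 blocked the splicing. The paper measured the spliced form separately and reports that both treatments lowered it. All 7 genes that mark LNCaP cells were read at 2718 or more counts in every library, and their summed level was 3153 to 3303 CPM in siCtrl, 2714 to 2767 CPM in siXBP1, 3176 to 3278 CPM in Vehicle and 3623 to 3721 CPM with MKC8866. Of 8 markers of other cells, PTPRC, PECAM1, COL1A2, KRT5 and CHGA did not pass 9 counts in any library, KRT14 and TP63 did not pass 37, and COL1A1 had 788 to 1115. The summed level of those 8 was 25.8 to 37.8 CPM over the 16 libraries. The part of these marker levels in the results was not tested. In bulk RNA a lower level can come from fewer cells with the transcript or from less of it per cell, and these cannot be told apart.

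Per kilobase of exon, the constitutive chaperone genes HSP90AB1 and HSPA8 were the most abundant members. In siCtrl, HSP90AB1 was at 581 ± 7.42 FPKM (CPM divided by the exon length in kilobases), HSPA8, the constitutive HSP70, at 362 ± 8.32 FPKM, HSPB1 at 219 ± 27.0 FPKM and HSP90AA1 at 201 ± 6.64 FPKM. A gap then followed to BAG3 at 38.6 ± 2.29 FPKM, HSPA1B at 29.6 ± 2.65 FPKM, DNAJB1 at 16.6 ± 0.775 FPKM, HSF1 at 16.4 ± 0.768 FPKM and HSPH1 at 12.3 ± 0.345 FPKM. HSPA1A was at 0.117 ± 0.0332 FPKM. By this measure HSPB1 and HSP90AA1, and DNAJB1 and HSF1, did not differ beyond their spread in this group. The exon length covers all annotated exons of a gene and can differ from that of 1 transcript. It was 1634 bases for HSPB1 and 5248 for HSP90AA1, where the longest coding transcripts had 812 and 3510. For HSF1 it was 5307 against 2134, and for DNAJB1 3672 against 4273. Levels by transcript length were not computed, so the order and these ties hold for the exon length only.

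**Figure D1:**
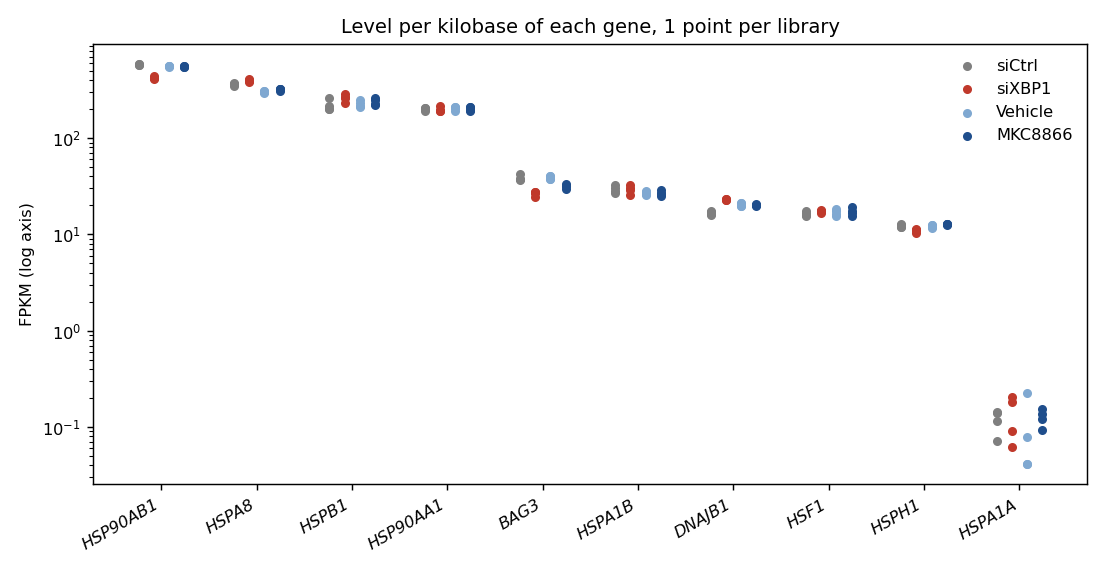
Level of each gene per kilobase of exon (FPKM, log axis), 1 point per library, with the 4 groups in colours. HSP90AB1, HSPA8, HSPB1 and HSP90AA1 form the upper set and HSPA1A lies far below the others in every group.

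The levels of HSPA1A and HSPA1B carry a limit that the rest do not. HSPA1A (ENSG00000204389, 6:31815464-31817946, plus strand) and HSPA1B (ENSG00000204388, 6:31827735-31830255, plus strand) encode the stress-inducible HSP70 and are near-identical neighbours. Of 2251 windows of 150 bases, the read length, along the HSPA1A transcript, 1566 (69.6%) occurred unchanged in HSPA1B, and 70.1% of the 2368 windows of HSPA1B occurred in transcripts of other genes. The counting left out fragments that aligned to several places. How many such fragments these genes had was not measured, and the shares of the 2 genes are close to each other. HSPA1A received 3 to 19 fragments per library and HSPA1B 1891 to 2775. For 7 of the other 8 members no window was shared, and for HSP90AA1 1.04% were.

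XBP1 knockdown moved 6 of the 10 heat shock genes, in both directions. HSP90AB1, BAG3 and HSPH1 fell, DNAJB1, HSPB1 and HSPA8 rose, and HSF1, HSPA1A, HSPA1B and HSP90AA1 did not pass the test (edgeR's quasi-likelihood test with Benjamini-Hochberg adjustment over all genes, adjusted p under 0.05). Across the 21021 genes tested, 34.8% were called, 18.2% lower and 16.5% higher. The median log2 fold change was 0.03 over the 10 members and 0.005 over all genes. BAG3 fell to 0.690 and HSP90AB1 to 0.728 of the control level, and DNAJB1 rose to 1.39 times it.

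MKC8866 moved 1 of the 10 genes. BAG3 fell, and the other 9 did not pass the test. Of 21045 genes tested, 4.47% were called and 3.11% were called lower. The median log2 fold change of the members was 0.01, and over all genes it was 0.003. Intervals (95%) for the 8 uncalled members other than HSPA1A lay within −0.11 and 0.18 on the log2 scale, whereas that of HSPA1A, with its few counts, ran from −0.65 to 1.30.

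**Figure D2:**
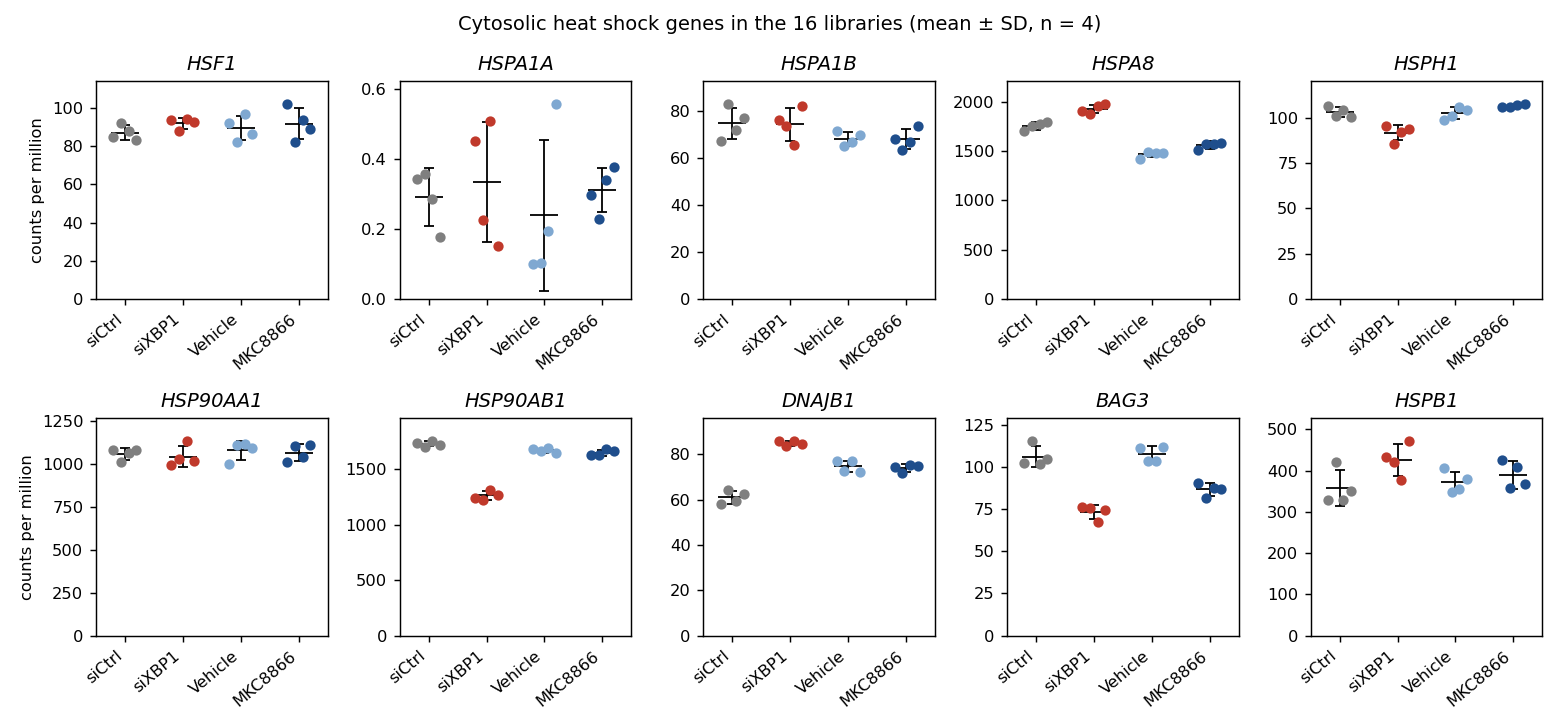
CPM of the 10 genes in each of the 16 libraries (points), with the mean and SD of each group (bars, n = 4), and with axes that start at 0. HSP90AB1 is low in siXBP1 alone, BAG3 is low in both siXBP1 and MKC8866, and DNAJB1 is lowest in siCtrl and highest in siXBP1.

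HSF1 (ENSG00000185122, chromosome 8, plus strand), which encodes the main transcription factor of the response, stayed in a narrow range. Its level was 84.99, 92.4, 87.8 and 83.0 CPM in siCtrl and 93.5, 87.8, 94.3 and 92.7 CPM in siXBP1. Vehicle libraries had 92.1, 82.2, 96.9 and 86.6 CPM, and MKC8866 libraries had 101.9, 82.4, 93.5 and 89.2 CPM. The ranges of neighbouring groups overlapped throughout. The log2 fold change was 0.08 (95% interval −0.02 to 0.17, adjusted p = 0.202) after knockdown and 0.03 (−0.09 to 0.15, adjusted p = 0.855) with MKC8866. HSF1 acts largely through modification and trimerization of its protein, which mRNA levels do not measure.

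HSPA1B, the inducible HSP70 gene with the readable counts, was at 67.3, 82.9, 71.9 and 76.9 CPM in siCtrl and at 76.0, 73.5, 65.3 and 82.3 CPM in siXBP1. The Vehicle libraries were at 71.5, 65.0, 66.7 and 69.6 CPM and the MKC8866 libraries at 68.1, 63.4, 66.8 and 73.7 CPM. Treated and control libraries overlapped in both experiments. The log2 fold changes were −0.01 (95% interval −0.14 to 0.12, adjusted p = 0.914) and −0.01 (−0.11 to 0.10, adjusted p = 0.976). When the counts of HSPA1A and HSPA1B were summed into 1 gene, the values were −0.01 and −0.004.

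HSPA8 (ENSG00000109971, 11:123057489-123063230, minus strand) encodes HSC70, the HSP70 that cells make without stress. It was read at 1700.2, 1753, 1769 and 1796 CPM in siCtrl and at 1907, 1877, 1950.4 and 1971 CPM in siXBP1. The lowest siXBP1 library was above the highest siCtrl library, and the log2 fold change was 0.13 ± 0.036 (SE, adjusted p = 0.00694). Vehicle gave 1419, 1487, 1476 and 1482 CPM, and MKC8866 gave 1504, 1573, 1574 and 1583 CPM. Here too the groups did not overlap, yet the change of 0.09 ± 0.033 did not pass the adjustment over all genes (unadjusted p = 0.0155, adjusted p = 0.178). A test of the difference between the 2 responses did not pass either (0.05, 95% interval −0.05 to 0.14, adjusted p = 0.542). HSPA8 stood apart between the control groups as well, as given below, and all 4 groups kept separate ranges. SNORD14C, SNORD14D and SNORD14E lie inside HSPA8 on the same strand.

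HSPH1 (ENSG00000120694, 13:31134974-31162388, minus strand) encodes HSP110, which exchanges the nucleotide of HSP70 and holds unfolded clients. Its level was 106.8, 101.1, 104.7 and 100.8 CPM in siCtrl and 95.8, 85.9, 92.0 and 93.7 CPM in siXBP1. No siXBP1 library reached the siCtrl range (log2 fold change −0.17 ± 0.044, adjusted p = 0.00356). In Vehicle it was 98.7, 101.2, 106.1 and 104.6 CPM and with MKC8866 106.2, 106.3, 107.3 and 107.5 CPM. The MKC8866 libraries were just above the highest Vehicle library, and the change was 0.06 (95% interval −0.03 to 0.14, adjusted p = 0.581).

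Of the HSP90 pair, HSP90AB1 fell after knockdown and HSP90AA1 was not called. HSP90AB1 (ENSG00000096384, 6:44246166-44253888, plus strand) encodes the constitutive HSP90β. It was at 1739, 1704, 1755 and 1722 CPM in siCtrl and at 1244, 1225, 1317 and 1269 CPM in siXBP1. The highest siXBP1 library was thus well under the lowest siCtrl library, and the log2 fold change was −0.46 ± 0.038 (adjusted p = 2.18e-09), a fall of 27.2%. With MKC8866 it was at 1630.0, 1627, 1679 and 1663 CPM against 1683, 1663, 1688 and 1646 CPM in Vehicle. These ranges overlapped, with a log2 fold change of −0.02 (95% interval −0.09 to 0.05, adjusted p = 0.850).

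HSP90AA1 (ENSG00000080824, 14:102080738-102139699, minus strand) encodes HSP90α, the stress-inducible form. It was at 1081, 1006, 1059 and 1078 CPM in siCtrl and at 993, 1024, 1131 and 1014 CPM in siXBP1. In Vehicle it was at 996, 1110.0, 1113 and 1092 CPM and with MKC8866 at 1008, 1100.0, 1039 and 1106 CPM. The 4 groups overlapped, and the log2 fold changes were −0.03 (95% interval −0.12 to 0.07, adjusted p = 0.713) and −0.02 (−0.10 to 0.06, adjusted p = 0.878). The difference between the HSP90 genes in their response was not tested. HSP90AA1 overlaps WDR20 on the opposite strand between 102139503 and 102139699.

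DNAJB1 (ENSG00000132002, 19:14514770-14529770, minus strand) encodes HSP40, the J-domain protein that delivers clients to HSP70. It was at 57.9, 64.3, 59.5 and 62.4 CPM in siCtrl and at 85.9, 83.7, 85.8 and 84.5 CPM in siXBP1. The ranges were far apart, and the log2 fold change was 0.47 ± 0.043 (adjusted p = 9.78e-09). Levels in Vehicle were 77.0, 72.8, 76.9 and 72.4 CPM and with MKC8866 74.3, 71.6, 75.1 and 74.9 CPM, with overlap (log2 fold change −0.02, 95% interval −0.11 to 0.07, adjusted p = 0.917). TECR lies on the opposite strand across 14517085 to 14529770, most of the DNAJB1 locus, and fragments in exons of both were not counted. TECR itself was not called in any comparison, with log2 fold changes of 0.10 (adjusted p = 0.106) after knockdown and 0.02 with MKC8866.

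BAG3 (ENSG00000151929, 10:119651370-119677819, plus strand) encodes a nucleotide exchange factor that ties HSP70 to small heat shock proteins and to selective autophagy. It was the member that fell in both experiments. Its level was 102, 115, 102 and 105 CPM in siCtrl and 76.1, 75.3, 67.3 and 74.6 CPM in siXBP1. Its Vehicle values were 111, 103, 103 and 112 CPM, and its MKC8866 values were 90.7, 81.2, 87.3 and 87.1 CPM. Neither treated group overlapped its control. The log2 fold change was −0.53 ± 0.049 (adjusted p = 9.54e-09) after knockdown and −0.31 ± 0.045 (adjusted p = 4.0e-05) with MKC8866. By rank of p among all genes tested, BAG3 stood at 689 after knockdown and at 229 with MKC8866. No difference between the 2 control groups was called (−0.03, 95% interval −0.13 to 0.07, adjusted p = 0.759).

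HSPB1 (ENSG00000106211, 7:76302544-76304295, plus strand) encodes HSP27, a small heat shock protein that holds unfolded clients without ATP. In siCtrl it varied more between replicates, relative to its mean, than any other member except HSPA1A. It was at 328, 422, 329 and 350 CPM in siCtrl and at 433, 422, 378 and 472 CPM in siXBP1. Replicate 2 of siCtrl lay inside the siXBP1 range, and the log2 fold change was 0.25 ± 0.065 (adjusted p = 0.00404). In Vehicle it was at 406, 348, 355 and 379 CPM and with MKC8866 at 426, 357, 408 and 367 CPM, which overlapped (0.07, 95% interval −0.04 to 0.18, adjusted p = 0.639).

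**Figure D3:**
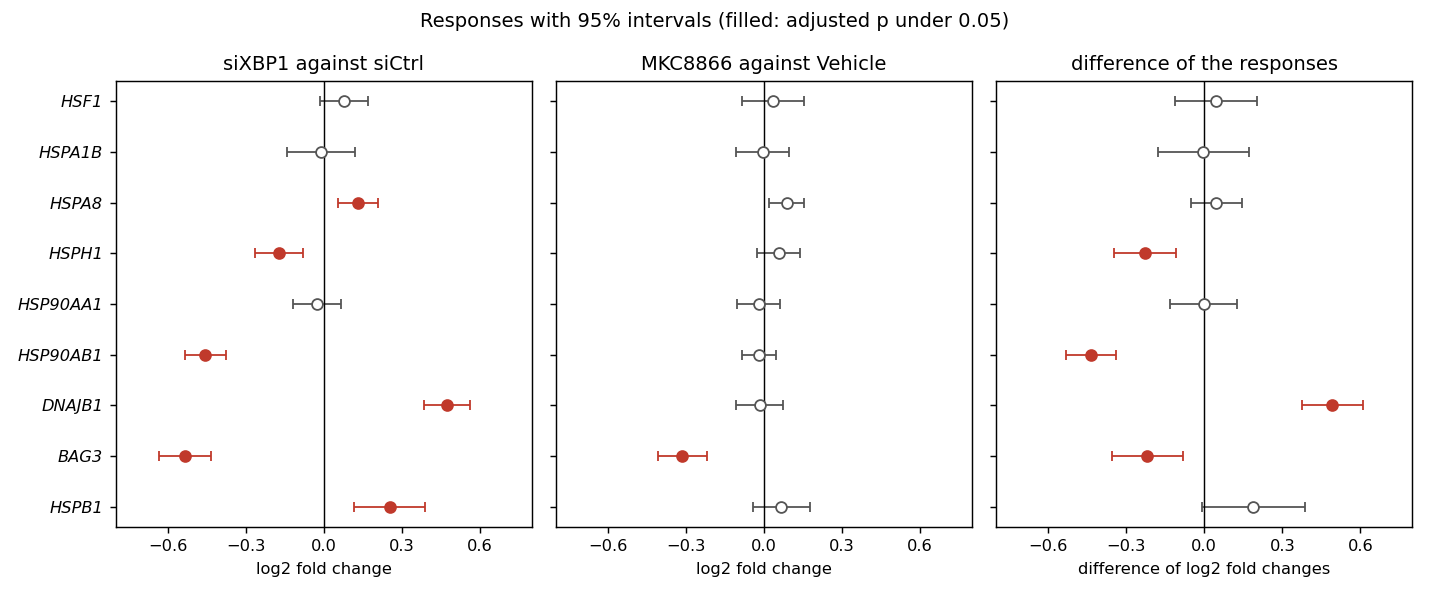
Log2 fold changes of 9 heat shock genes after knockdown and with MKC8866, and the difference between the responses, with 95% intervals; filled points have an adjusted p under 0.05. HSPA1A is left out because of its wide interval. BAG3 is to the left of 0 in the first and second panels, and HSP90AB1 and DNAJB1 move in the first panel only, with differences of −0.44 and 0.49 in the third.

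The responses to knockdown and inhibitor were compared by an interaction term in a fit of all 16 libraries, in which 23.3% of 20357 genes were called. Of the 10 members 4 were called. The log2 response of HSP90AB1 to knockdown minus that to MKC8866 was −0.44 ± 0.047 (SE, adjusted p = 2.96e-08). HSPH1 differed by −0.23 ± 0.057 (adjusted p = 0.00375), DNAJB1 by 0.49 ± 0.057 (adjusted p = 9.42e-08) and BAG3 by −0.22 ± 0.067 (adjusted p = 0.0169). Without replicate 2 of siCtrl, where BAG3 was highest, the BAG3 difference was −0.18 (adjusted p = 0.05004), just past the threshold. HSPB1 was not called at 0.19 (95% interval −0.01 to 0.39, adjusted p = 0.169), and without the same library it was, at 0.27 (adjusted p = 0.0193). The agent, the length of pretreatment, transfection and the experiment cannot be told apart in this contrast.

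The control groups were compared in the same fit, where 15% of 20357 genes were called, to order the levels over the 4 groups. HSPA8 was higher in siCtrl than in Vehicle by 0.25 ± 0.034 on the log2 scale (adjusted p = 3.68e-06) and DNAJB1 was lower by 0.30 ± 0.041 (difference −0.30, adjusted p = 3.79e-06). The other 8 were not called. For HSP90AB1 the 4 siCtrl libraries were above those of Vehicle, yet the change was 0.04 (95% interval −0.03 to 0.11, adjusted p = 0.469). DNAJB1 thus ran from siCtrl at 61.0 ± 2.84 CPM through MKC8866 at 74.0 ± 1.63 and Vehicle at 74.8 ± 2.52 to siXBP1 at 84.98 ± 1.07 CPM, of which MKC8866 and Vehicle overlapped. HSPA8 ran from Vehicle at 1466 ± 31.6 through MKC8866 at 1559 ± 36.6 and siCtrl at 1755 ± 40.4 to siXBP1 at 1926 ± 42.3 CPM. The control groups are also the reference of the knockdown and inhibitor comparisons, so these contrasts share libraries. Transfection and the rest of the 2 experiments cannot be told apart.

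Other chaperones of the cytosol and mitochondria were counted for context. Of 58 such genes, 53 were tested in each experiment. After knockdown 17 were lower, 12 were higher and 24 were not called, and the median log2 fold change was −0.02, where 18.2% of all genes were lower and 16.5% higher. With MKC8866 edgeR called 2 lower, 0 higher and 51 not, with a median of −0.001, while at an unadjusted p under 0.05 there were 6 lower and 1 higher, and DESeq2 called 4 lower and 0 higher. Over all genes 4.47% were called with MKC8866. The ER chaperone list holds 14 genes for chaperones and degradation factors of the ER, of which 13 were tested. After knockdown 8 were lower and 3 higher (median −0.23), and with MKC8866 11 were lower and 0 higher (median −0.43). Counts were the same by DESeq2 and at an unadjusted p under 0.05. Those higher after knockdown were HSPA5 (0.30), HSP90B1 (0.27) and PDIA4 (0.17). With MKC8866 HSPA5 (−0.15) and PDIA4 (−0.22) were lower, and HSP90B1 (0.01) was not called. DNAJB9, an ER partner of BiP, changed by −2.31 ± 0.050 (adjusted p = 4.11e-19) after knockdown and −1.87 ± 0.058 (adjusted p = 9.75e-17) with MKC8866.

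**Figure D4:**
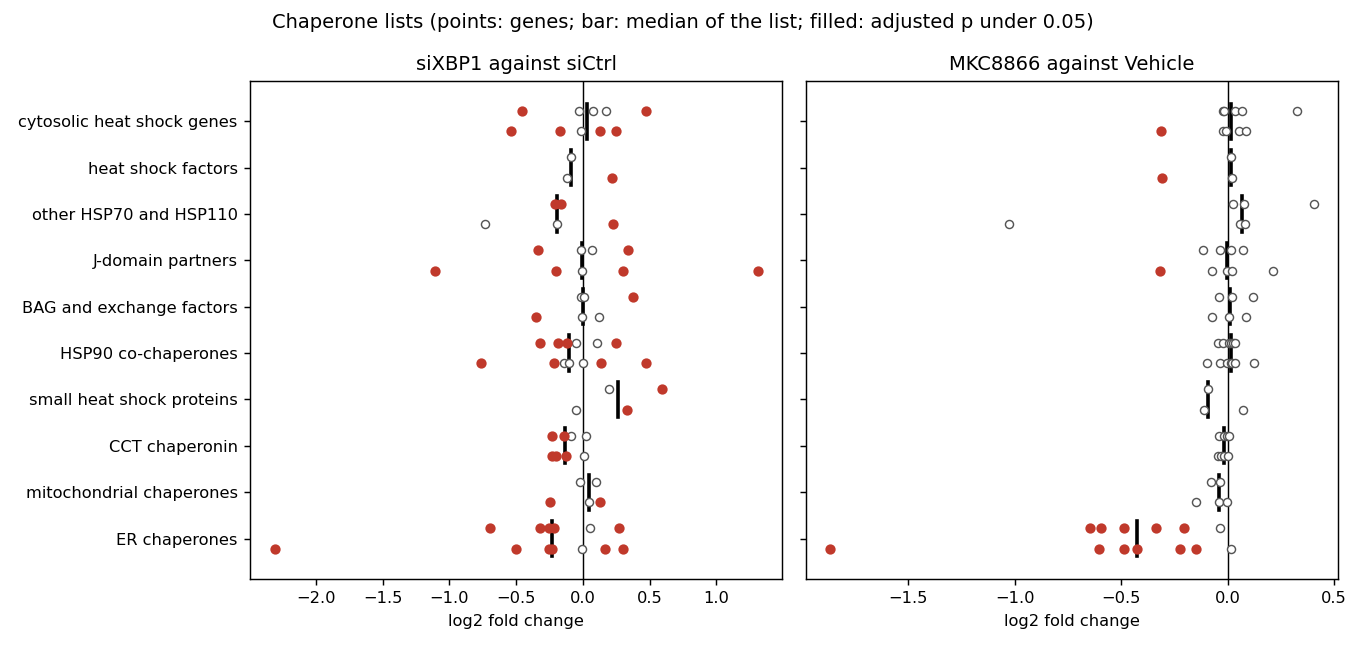
Log2 fold change of each tested gene (points) by chaperone list, with the list's median (bar), after knockdown and with MKC8866; filled points have an adjusted p under 0.05. Points of most cytosolic lists lie on both sides of 0 after knockdown, and with MKC8866 the medians of the lists other than the ER chaperones are between −0.09 and 0.07, where the median of the ER chaperones is −0.43. The ER chaperone list includes degradation factors.

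The partners of HSP70 also moved in both directions. Among 9 other J-domain genes 3 fell and 3 rose after knockdown, when 34.8% of all genes were called, the share beside which the counts of these short lists stand. DNAJA2, which delivers clients to HSC70, fell from 140.5 ± 6.70 to 65.3 ± 2.94 CPM (log2 fold change −1.11 ± 0.047, adjusted p = 2.01e-14), and was at 141 ± 5.26 and 143 ± 7.44 CPM in Vehicle and MKC8866 (0.02, adjusted p = 0.931). The difference between these responses was −1.12 (adjusted p = 3.76e-14). DNAJB6, which keeps aggregating proteins soluble, rose by 0.34 ± 0.056 (adjusted p = 4.74e-05). Of 6 exchange factors and BAG proteins, BAG4 fell (−0.35, adjusted p = 1.60e-05), BAG1 rose (0.38, adjusted p = 0.000464) and 4 were not called. Of the HSP70 and HSP110 genes outside the set, 5 were tested after knockdown, of which HSPA14 (−0.21) was among 2 that fell and HSPA4L (0.23) rose. HSPA6 was left out by the filter because of its low counts in siXBP1, 0 to 4 per library against 8 to 16 in siCtrl. Its log2 fold change with MKC8866, also on few counts, was −1.03 (edgeR's quasi-likelihood test, unadjusted p = 0.0271, adjusted p = 0.245). With MKC8866 1 J-domain gene was called, DNAJB5, which fell by 0.32 on the log2 scale (−0.32 ± 0.049, adjusted p = 9.16e-05), and DESeq2 called 2. Of the exchange factors and other HSP70 genes 0 were called by edgeR and 0 by DESeq2, and 1 had an unadjusted p under 0.05.

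Of 13 HSP90 co-chaperone genes 5 fell and 3 rose after knockdown, and 0 were called with MKC8866 by edgeR and DESeq2, with 2 at an unadjusted p under 0.05. FKBP5, an androgen-induced co-chaperone of steroid receptors, had the smallest p (−0.76 ± 0.054, adjusted p = 1.57e-10), and ST13, a co-chaperone of HSP70, rose (0.47 ± 0.042, adjusted p = 6.70e-09). With MKC8866 FKBP5 was at 0.12 (adjusted p = 0.0826). Of 8 genes of the CCT chaperonin, which folds actin and tubulin, 5 fell after knockdown, with CCT8 at −0.23 and CCT6A at −0.20, and with MKC8866 0 were called by edgeR or DESeq2 and 0 had an unadjusted p under 0.05. The small heat shock protein genes CRYAB (0.59 ± 0.107, adjusted p = 0.000126) and HSPB8 (0.33 ± 0.087, adjusted p = 0.00414) rose with HSPB1, out of 4 tested. None of 3 tested with MKC8866 was called by edgeR or DESeq2 or had an unadjusted p under 0.05. CRYAB had between 105 and 198 fragments in the knockdown libraries.

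Among the heat shock factors and their regulators, 3 of 4 genes were tested. HSBP1, which binds HSF1 trimers, rose after knockdown (0.22 ± 0.045, adjusted p = 0.000470), and HSF4 fell with MKC8866 (−0.31 ± 0.072, adjusted p = 0.0107). Of 5 mitochondrial chaperone genes, GRPEL1 fell (−0.25) and HSPA9 rose (0.13, adjusted p = 0.0204) after knockdown. With MKC8866 edgeR called 0, DESeq2 called 1, and 1 had an unadjusted p under 0.05.

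Within groups, the members did not vary as 1 unit. Deviations of log2 CPM from the group means were averaged over the 9 members with enough counts, and each member was set against the mean of the others over 16 libraries. Pearson's r was 0.66 for DNAJB1, 0.65 for HSPA1B, 0.61 for BAG3, 0.61 for HSPB1 and 0.47 for HSF1. It was −0.04 for HSPA8, −0.05 for HSPH1, −0.14 for HSP90AB1 and −0.70 for HSP90AA1. Of 10249 other genes with at least 10 CPM, those most like the mean of the members by this measure were COBL (r = 0.96), SRF (0.95), PPP6R1 (0.95), CLUH (0.94) and EPN3 (0.94). These are descriptions with no test. The CPM were already scaled by TMM library sizes, and what else the genes of a library share was not examined.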

How the data were processed

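According to the paper, the labels and the file header, the authors aligned paired-end reads of 150 bases from stranded libraries to GRCh38 with STAR 2.5.2a, and counted fragments with featureCounts 1.5.0 on Ensembl release 85 genes, without regard to strand and without fragments that aligned to several places or overlapped 2 genes. The deposited values are raw counts per gene. Here, R 4.3.3 with edgeR 4.0.16 (TMM, quasi-likelihood F test, two-sided) was run per experiment on genes that exceeded 5 counts in 1 or more libraries of both groups, with Benjamini-Hochberg adjustment over all genes. Interaction and control contrasts came from 1 fit of 16 libraries. SE were taken from the fold change and F, and 95% intervals from the same test. CPM used TMM library sizes, and FPKM the deposited exon lengths. The biological coefficient of variation was 5.40% and 4.97%, which limits precision more than depth does for all members except HSPA1A. The members and gene lists were chosen with earlier results of these data known. Other genes named are the up to 2 called genes with the smallest p per list and comparison, the 5 most alike, XBP1, and overlapping or marker genes. Also named are genes of the ER list with promoter matches or a rise after knockdown, and HSPA6. DESeq2 1.42.0, RLE size factors, 2 other filters, a replicate block, a joint fit, summed HSPA1 counts and single libraries left out were the alternatives. The scripts were tested on simulated data. Shared windows were counted in GENCODE v44 transcripts.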

Additional observations from a re-analysis of the deposited data

Results flagged for a closer look

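The responses to knockdown and to MKC8866 differed for 4 of the 10 heat shock genes by the interaction test of edgeR, which called 23.3% of 20357 genes. The differences in log2 fold change were −0.44 for HSP90AB1, 0.49 for DNAJB1, −0.23 for HSPH1 and −0.22 for BAG3. HSP90AB1, DNAJB1 and HSPH1 passed the test in the knockdown experiment and not with MKC8866, and BAG3 passed in both with the same sign.

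In 3 of 40 sets of 4 libraries, 1 library lay far from the other 3, with a gap to its nearest neighbour divided by the range above Dixon's 95% critical value. Chance alone flags about 1 set in 20. For HSPA8, replicate 1 of Vehicle (1419 CPM) and replicate 1 of MKC8866 (1504 CPM) were the low ones, with gaps of 0.836 and 0.873 of the range. For BAG3, replicate 3 of siXBP1 (67.3 CPM) was low, with a gap of 0.830. The 2 low HSPA8 libraries carry the same replicate number.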

How the results depend on the processing

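The number of members called did not move by over 1.5 times under DESeq2, RLE size factors, either other filter, the joint fit or the removal of any library. Leaving out each library gave 6 to 6 members after knockdown, 1 to 1 with MKC8866, 4 to 4 for the difference and 2 to 2 between controls, although BAG3 and HSPB1 changed places in the difference when replicate 2 of siCtrl was left out. With the replicate number as a block, 2 members were called with MKC8866, since HSPA8 was added (0.09, adjusted p = 0.00125), and calls over all genes rose from 941 to 2746. Of the other cytosolic and mitochondrial chaperones, edgeR called 2 with MKC8866, DESeq2 4, and the block 7 (6 lower and 1 higher), among them 2 HSP90 co-chaperones and 2 mitochondrial chaperones. HSPB1 was called in the difference with the block (adjusted p = 0.0426) and without a filter on low counts (adjusted p = 0.0186). Deviations of same-numbered libraries correlated at 0.186, 0.328, 0.0808 and 0.200 in the inhibitor experiment and at 0.0077 to 0.0607 in the knockdown experiment, and not every library correlated best with its own number, so the numbers were not taken as pairs. The block could not be fitted for the contrast of controls.

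Uncalled members changed sign under some settings. Summing HSPA1A with HSPA1B gave −0.0111 after knockdown and −0.00446 with MKC8866. Nearly all summed fragments were counted for HSPA1B (1891 to 2775 per library, against 3 to 19 for HSPA1A). The sum therefore has the sign of HSPA1B by construction. Leaving out single libraries gave ranges, after knockdown, of −0.10 to 0.43 for HSPA1A, −0.0596 to 0.0490 for HSPA1B and −0.0648 to 0.00365 for HSP90AA1, and, with MKC8866, of −0.0260 to 0.0750 for HSF1 and −0.0486 to 0.0183 for HSPA1B. For the difference they were −0.00352 to 0.10 for HSF1, −1.02 to 0.10 for HSPA1A, −0.0579 to 0.0519 for HSPA1B and −0.0459 to 0.0327 for HSP90AA1, and between controls −0.0852 to 0.00338 for HSF1, −0.0260 to 1.09 for HSPA1A and −0.0207 to 0.0273 for HSPH1. The cause of the sign changes with single libraries left out was not tested. By CPM without length, HSPA8 and not HSP90AB1 ranked first among the members.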
